A study of Mus musculus with 12 samples.

Results

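The 10 genes described here encode the proteins that coat the lipid droplet of the fat cell and those that run its breakdown by lipolysis. They are Pnpla2, Lipe, Mgll, Abhd5, G0s2, Plin1, Plin4, Cidec, Adrb3 and Aqp7, chosen as the rows of the count table with these mouse symbols. Gene positions below are those of GENCODE M21 on GRCm38. Each symbol matched 1 of 49315 rows, and all 10 were among the 18702 genes that passed the filter on low counts. RNA was sequenced from epididymal white adipose tissue (eWAT) of 12 male mice, all of which had eaten a high fat diet (60% of energy from fat) over 12 weeks. Control mice were miR-181a2b2flox/flox (flox), which carry the floxed locus without a deletion, and knockout mice were miR-181a2b2-/- (KO), which lack the miRNAs Mir181a-2 and Mir181b-2 in every tissue rather than in fat alone. Mice of each genotype were injected into the peritoneum each week with vehicle or with methotrexate (MTX), a folate antagonist, at 1 mg/kg. There were 3 mice in each of the 4 groups and 1 library per mouse. The mice were age-matched littermates, and their age was not given in the sources used here.

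A fat cell stores triglyceride in a large droplet, whose surface carries perilipins and CIDEC. PNPLA2 (adipose triglyceride lipase) removes the first fatty acid, LIPE (hormone-sensitive lipase) the next, and MGLL (monoglyceride lipase) the last. ABHD5 activates PNPLA2 and G0S2 inhibits it, and PLIN1 holds ABHD5 at the droplet until catecholamines, acting through the receptor ADRB3 and cyclic AMP, lead to its release. The glycerol leaves the cell through the channel AQP7. Of the mature miRNAs made by the locus removed in the KO mice, those printed below share a seed, given in capitals. The seed is bases 2 to 8 counted from the first base. They are printed (RefSeq, GRCm38.p6, plus strand, chr2:38852741-38852763 and chr2:38853845-38853868) because the genotypes differ in them. The other mature miRNAs of this locus have different seeds, which were not searched for. The other miR-181 loci, which were not deleted, make miRNAs with the shared seed too.
miR-181a-5p: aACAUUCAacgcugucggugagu
miR-181b-5p: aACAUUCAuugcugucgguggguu
Adrb3 window: aatcaaattaataaatattatTGAATGTg
The stretch after the stop codon of 1 transcript per gene was searched for 2 forms. These were the reverse complement of bases 2 to 8, and that of bases 2 to 7 followed by an A. Of the 10 genes, 1 held a match, Adrb3, to the first form at position 774 of the 781 bases after the stop. Its window of 29 bases is the last line above, with the match in capitals. Among all 20982 protein-coding genes searched, 21.0% held a match to either form. A match is a description of letters and not a site known to be used.

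Counted reads ranged from 19495310 to 23976469 per library, and the 10 genes together took 0.434% to 1.90% of them. The lowest count of any of the 10 genes in a library was 602, so counting error was small beside the spread between mice. The precursor Mir181b-2 had 0 counts in all 12 libraries and Mir181a-2 had 0 in 11 and 2 counts in a flox MTX library, so these counts do not check the genotype. The tissue label was checked with 12 adipocyte markers, all above 3 counts in every library. Levels are given as CPM, counts relative to the total of the library after TMM scaling, and Adipoq (adiponectin) stood between 375 and 3618 CPM. Markers of other tissues differed between the groups, and their sums are given in CPM of the library total without TMM scaling. The 12 macrophage markers together had 487 to 829 CPM in the flox vehicle libraries, 3619.7 to 7097 in the KO vehicle, 495 to 3794 in the flox MTX and 4703 to 7993 in the KO MTX libraries. The 15 epididymis markers together had 4681, 13642 and 1516 CPM in flox vehicle replicates 1, 3 and 4 and 434 in flox MTX replicate 1, and 1.64 to 20.1 in the other 8 libraries. The 9 germ cell markers of the testis together had 205 to 593 CPM in the flox vehicle libraries and 0.277 to 12.1 in the others. Of these lists, 1 epididymis marker, Lcn5, was at 0 in all libraries of a group, the KO MTX group. The 3 flox vehicle libraries therefore stood apart from the others in RNA of the epididymis, the organ next to this fat pad, and of germ cells, and calls for the 10 genes that change without 1 of them are given below.

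Cidec was the most abundant of the 10 genes per length in every group, and Abhd5 or Adrb3 the least. Levels of different genes are compared here only as CPM per kb of exon. In flox vehicle mice Cidec stood at 1857 ± 721 CPM per kb (mean ± SD, n = 3), in KO vehicle mice at 1518 ± 526, in flox MTX mice at 2809.8 ± 1028 and in KO MTX mice at 1200.1 ± 510.0. Its lowest library was above the highest library of the next gene in each group. CIDEC promotes the fusion of droplets into the single large droplet of the white fat cell. Below it came Pnpla2, Plin4, Plin1, Mgll, G0s2 and Lipe, whose means in flox vehicle mice ran from 543 ± 372 CPM per kb for Pnpla2 to 291 ± 104 for Lipe. The order of these 6 genes differed between the groups, and in each group's own order neighbours among them overlapped. Aqp7 stood at 52.8 ± 17.8 and Abhd5 at 15.5 ± 6.05 CPM per kb in flox vehicle mice, without overlap between them in any group. The place of Adrb3 changed with genotype. It stood above Aqp7 in flox mice, at 121 ± 86.7 CPM per kb under vehicle and 115 ± 113 under MTX, where the ranges of these genes overlapped. In KO mice it stood below Aqp7, at 21.5 ± 17.2 under vehicle and 14.4 ± 6.24 under MTX, without overlap.

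**Figure D1:**
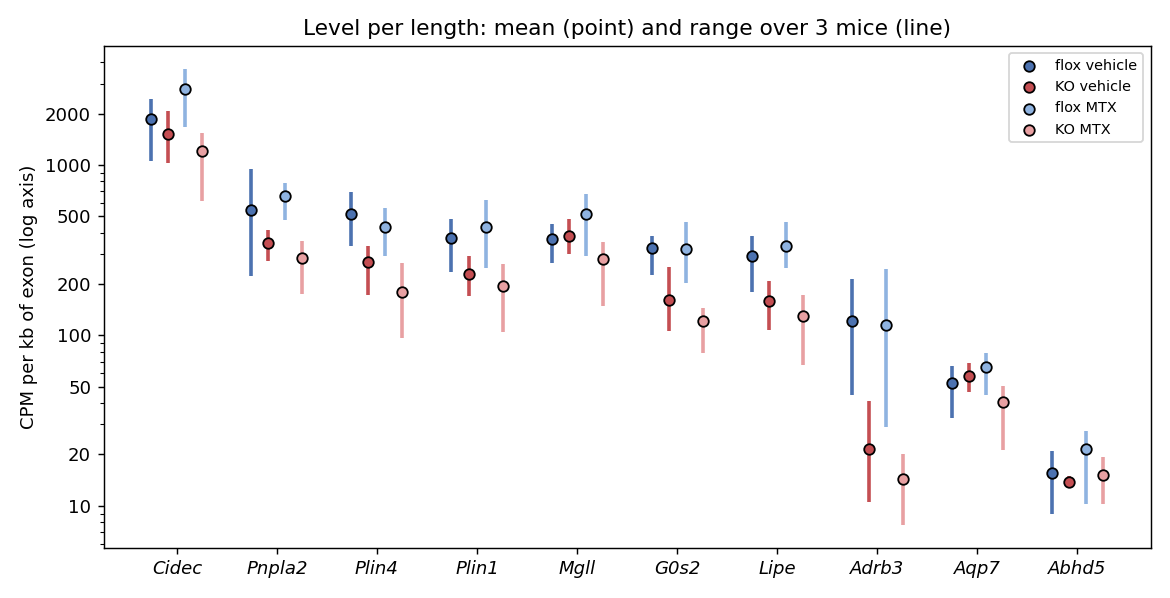
Level per length of the 10 genes in the 4 groups. Points are means and lines the range over 3 mice, in CPM per kb of exon on a log axis, with genes ordered by their mean in flox vehicle mice. Cidec is highest in every group, and Adrb3 lies above Aqp7 in both flox groups and below it in both KO groups.

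The promoters of Plin1 and Cidec are shown because these were the genes of the 10 in which a match to TTGCNNAA was found. This is a loose form of the C/EBP motif, searched on either strand within 250 bases before a RefSeq start. C/EBP factors act in fat cell differentiation. The windows are given on the strand of the gene (minus for both, GRCm38.p6), with matches in capitals.
Plin1 promoter, chr7:79732777-79733026: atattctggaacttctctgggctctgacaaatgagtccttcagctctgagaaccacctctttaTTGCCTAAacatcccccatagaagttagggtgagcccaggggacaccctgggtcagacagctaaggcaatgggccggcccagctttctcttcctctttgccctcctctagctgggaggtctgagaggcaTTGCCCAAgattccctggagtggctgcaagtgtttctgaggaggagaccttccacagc
Cidec promoter, chr6:113434765-113435014: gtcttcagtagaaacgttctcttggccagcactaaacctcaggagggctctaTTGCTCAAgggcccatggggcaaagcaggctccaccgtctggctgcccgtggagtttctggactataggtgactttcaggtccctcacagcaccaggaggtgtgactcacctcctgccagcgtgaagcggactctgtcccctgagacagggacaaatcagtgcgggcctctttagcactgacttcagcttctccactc
The motif was in 9.56% of 32851 promoter windows of the genome and in 2 of 13 windows of the 10 genes, where 9 of the 10 genes had an entry. The Cidec window belongs to 1 of its starts, and its other window held no match. A GC box (GGGCGG, either strand) was in 5 of the 13 windows, of Abhd5, G0s2, Lipe, Mgll and Pnpla2, beside 32.7% of all windows. The E-box CACGTG was in 2 of the 13, of Lipe and Mgll, beside 6.02% of all windows. The TATA box TATAAA, in 12.4% of all windows, and the direct repeat with a spacer of 1 base, a strict form of the element bound by nuclear receptors such as PPARG and in 0.338% of all windows, were in none of these windows. These are matches of letters in a short window, and no binding was measured.

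Under vehicle, Adrb3 and G0s2 were lower in KO than in flox mice, and the other 8 genes did not pass the test. Adrb3, the catecholamine receptor, fell by the most, by 5.62-fold, and G0s2, the inhibitor of PNPLA2, was 2.02-fold lower. In bulk tissue, fewer fat cells and less RNA per fat cell cannot be told apart. Of the 10 genes, 8 had a negative log2 fold change, a sign that 5 of them lost when scaled to adipocyte markers, with a median of -0.67, beside -0.06 over all 18702 genes tested. A gene was called when edgeR's quasi-likelihood test gave an adjusted p (Benjamini-Hochberg) below 0.1 and the fold change was at least 1.5. By this rule 2 of the 10 genes were called lower, where 17.8% of all genes tested were, so the number called was near the background. In either direction 31.7% of all genes were called. At an unadjusted p below 0.05, 3 of the 10 genes passed, beside 41% of all genes.

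Adrb3 (chr8:27225776-27250616, minus strand) was at 727, 151 and 347 CPM in the flox vehicle libraries and at 139.6, 42.9 and 35.7 in the KO vehicle libraries. The groups did not overlap, although flox replicate 3 and KO replicate 1 lay close together. The difference passed the test (log2 fold change -2.49, SE 0.84, adjusted p = 0.0454). The call was lost without flox vehicle replicate 1, at -1.77 (adjusted p = 0.161), without KO vehicle replicate 2, at -2.21 (adjusted p = 0.134), and without KO vehicle replicate 3, at -2.15 (adjusted p = 0.150). A non-coding gene, Gm45470, lies on the opposite strand of Adrb3, and since the strand setting of the counting is not stated, reads of the pair cannot be told apart. The same limit holds where Lipe, Mgll, Abhd5, G0s2 and Plin4 overlap genes on the opposite strand, for Lipe and G0s2 over their whole span.

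The lipases made up the next group. Pnpla2 (chr7:141455198-141460743, plus strand) was at 2876, 678 and 1365 CPM in flox and at 1253, 1099.7 and 824 CPM in KO vehicle mice (log2 fold change -0.63, SE 0.46, adjusted p = 0.329). The flox mice spanned more than the whole KO range, with replicate 1 the highest and replicate 3 the lowest of the 6 libraries. Lipe (chr7:25379527-25398710, minus strand) was at 2264, 1054 and 1817 CPM in flox and 1230.2, 945 and 630.2 CPM in KO mice (log2 fold change -0.87, SE 0.42, adjusted p = 0.139). Only flox replicate 3 lay within the KO range. Mgll (chr6:88724412-88828360, plus strand) was at 1975, 1349 and 2286 CPM in flox and 2434, 1917 and 1519 CPM in KO mice (log2 fold change 0.07, SE 0.40, adjusted p = 0.921). MGLL also ends the signal of the endocannabinoid 2-arachidonoylglycerol, and its transcript had nearly the same mean in both groups.

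Of the regulators of PNPLA2, G0s2 (chr1:193272161-193273217, minus strand) was at 332, 198 and 317 CPM in flox and 219.7, 107 and 92.4 CPM in KO vehicle mice (log2 fold change -1.02, SE 0.40, adjusted p = 0.0777). The groups overlapped in 1 library each, since KO replicate 1 was above flox replicate 3. The call was lost without flox vehicle replicate 1, at -0.88 (adjusted p = 0.190), replicate 4, at -0.92 (adjusted p = 0.153), KO vehicle replicate 2, at -0.84 (adjusted p = 0.212), or replicate 3, at -0.78 (adjusted p = 0.247). G0s2 lies inside the span of Lamb3 on the opposite strand. The activator Abhd5 (chr9:122351608-122381524, plus strand) was at 125, 53.7 and 99.1 CPM in flox and 89.1, 79.4 and 77.7 CPM in KO mice (log2 fold change -0.17, SE 0.39, adjusted p = 0.771), with all KO libraries inside the flox range.

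The coat proteins were lower on average in KO vehicle mice without passing the test. Plin4 (chr17:56100591-56109803, minus strand), a perilipin of newly formed droplets, was at 4007, 1946 and 2956 CPM in flox and 1943, 1706 and 992 CPM in KO mice (log2 fold change -0.94, SE 0.42, adjusted p = 0.118). The groups did not overlap, but flox replicate 3 and KO replicate 1 differed by only a few CPM. Plin1 (chr7:79720218-79732903, minus strand), the main perilipin of the white fat cell, was at 2247, 1097 and 1887 CPM in flox and 1351, 1057 and 787 CPM in KO mice (log2 fold change -0.71, SE 0.42, adjusted p = 0.229), and Cidec (chr6:113424634-113435760, minus strand) at 3873, 1948 and 4521 and 3849.8, 2696 and 1907 CPM (log2 fold change -0.29, SE 0.46, adjusted p = 0.667). Both overlapped between the groups. The glycerol channel Aqp7 (chr4:41033074-41048139, minus strand) was at 169, 92.2 and 186 CPM in flox and 196, 163 and 131 CPM in KO mice (log2 fold change 0.13, SE 0.36, adjusted p = 0.814). It was 1 of the 2 genes, with Mgll, whose fitted difference was above 0. In all, 2 of the 10 genes, Adrb3 and Plin4, had groups that did not overlap with KO lower, beside 25.3% of all genes, and 0 with KO higher, beside 22.8%.

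Flox vehicle replicate 3 was the lowest of its group for all 10 genes and had the most epididymis RNA, and the part of that RNA in these values was not tested. Without it 5 of the 10 genes were called lower in KO vehicle mice: Adrb3 and G0s2, with Pnpla2 at -1.002 (adjusted p = 0.0991), Lipe at -1.13 (adjusted p = 0.0867) and Plin4 at -1.17 (adjusted p = 0.0877). In that fit 4832 of all genes were called in either direction, beside 5924 with all libraries. Counts of all genes in fits without a library are in either direction, so they give no background share for genes called lower. Without flox vehicle replicate 1, KO vehicle replicate 2 or KO vehicle replicate 3, 0 of the 10 were called, beside 5238, 5507 and 4640 of all genes. Without KO MTX replicate 3, which enters through the shared estimate of the spread, 4 were called, beside 6315 of all genes. DESeq2 called 4, with Lipe and Plin4 beside Adrb3 and G0s2, where 19.2% of all genes were called lower. The 12 adipocyte markers had a median log2 fold change of -0.71 (-3.13 to 0.08) in the same comparison, with 4 of the 12 called lower. Their sum was 26820 to 60133 CPM in the flox vehicle and 26303 to 41430 in the KO vehicle libraries.

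**Figure D2:**
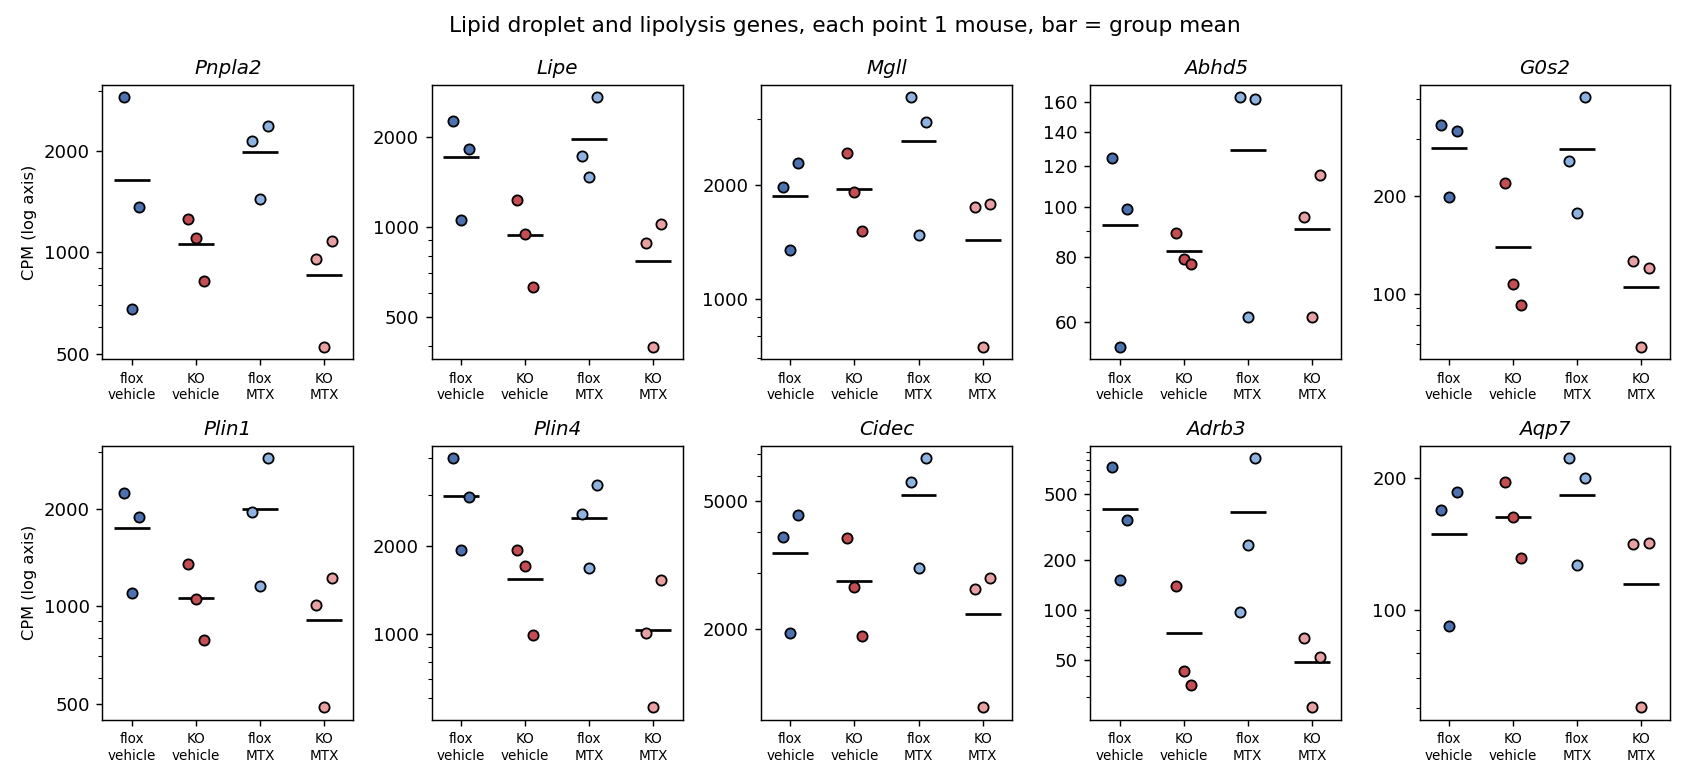
CPM of the 10 genes in each of the 12 mice on log axes. Points are mice and bars group means. KO MTX replicate 3 is the lowest of the 12 libraries for 9 of the 10 genes, and Adrb3 spans 26.1 to 823 CPM, the widest range of the 10.

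Under MTX all 10 genes were lower on average in KO than in flox mice, a direction that 9 of them lost when scaled to adipocyte markers, and none was called. The median log2 fold change of the 10 was -1.22, beside -0.05 over all genes tested. No gene of the 18702 was called in this comparison (0%), where the smallest adjusted p was 0.104. At an unadjusted p below 0.05, edgeR counted 7 of the 10 genes, beside 24.5% of all genes (4576), and DESeq2 counted 8 of the 10, beside 5067 of all genes. In 6 of the 10 the groups did not overlap, each with KO lower, beside 12.1% of all genes.

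The lipases Pnpla2 and Lipe and the coat genes Plin4 and Cidec were among these 6. Lipe was at 1728, 1461 and 2707 CPM in flox MTX and 884, 397 and 1019.8 CPM in KO MTX mice (log2 fold change -1.36, SE 0.42, adjusted p = 0.115). Pnpla2 was at 2138, 1442 and 2360.1 and 957, 526 and 1083 CPM (log2 fold change -1.21, SE 0.47, adjusted p = 0.152). Every KO mouse was below every flox mouse for both lipases. Plin4 was at 2574, 1687 and 3246 CPM in flox MTX and 1007, 559 and 1536 CPM in KO MTX mice (log2 fold change -1.28, SE 0.43, adjusted p = 0.124), and Cidec at 5727, 3104 and 6814 and 2664, 1141 and 2876 CPM (log2 fold change -1.23, SE 0.46, adjusted p = 0.148). Every KO mouse was again below every flox mouse, with flox replicate 2 and KO replicate 4 close to each other.

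Adrb3 and G0s2 had the largest differences here too. Adrb3 was at 98.1, 247 and 823 CPM in flox MTX and 67.8, 26.1 and 52.4 CPM in KO MTX mice (log2 fold change -3.00, SE 0.86, adjusted p = 0.109). The flox mice differed widely among themselves, and the lowest of them, replicate 1, was not far above the highest KO mouse. G0s2 was at 257, 177 and 404 and 126, 68.6 and 120.4 CPM (log2 fold change -1.41, SE 0.40, adjusted p = 0.109), with every KO mouse below every flox mouse.

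The groups overlapped for the remaining 4 genes. Plin1 was at 1963, 1157 and 2878 CPM in flox MTX and 1009, 487 and 1227 CPM in KO MTX mice (log2 fold change -1.14, SE 0.43, adjusted p = 0.146), with an overlap of 1 library, and Mgll at 3412, 1483 and 2939 and 1753, 750.5 and 1789.8 CPM (log2 fold change -0.87, SE 0.40, adjusted p = 0.210). Aqp7 was at 222, 127 and 201 and 142, 60.1 and 142 CPM (log2 fold change -0.68, SE 0.36, adjusted p = 0.269), and Abhd5 at 163, 61.3 and 162 and 95.6, 61.2 and 116 CPM (log2 fold change -0.51, SE 0.39, adjusted p = 0.438). Abhd5 had the smallest difference of the 10. In each of these 4 genes, flox MTX replicate 2 lay within the KO range.

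Flox MTX replicate 2 was the lowest flox MTX library for 9 of the 10 genes, Adrb3 being the exception, and it had the most macrophage RNA of the flox mice, at 3794 CPM. Without it 9 of the 10 genes were called lower, all but Aqp7, with adjusted p from 0.0318 for G0s2 to 0.0998 for Abhd5. In that fit 4064 of all genes were called in either direction, and how many of them were lower is not given here. Without flox vehicle replicate 3, 3 were called (Lipe, G0s2 and Adrb3) and 1028 of all genes. DESeq2 called 7 of the 10 lower, beside 7.93% of all genes, and 2769 of all genes in either direction, so the count of 0 depended on the tool and on that library. The adipocyte markers moved in the same direction, with a median of -1.20 (-3.24 to -0.61) and all 12 negative. Their sum was 39402 to 70204 CPM in the flox MTX and 17100 to 30967 in the KO MTX libraries, without overlap. The macrophage markers had a median of 1.48. The part of these markers in the differences of the 10 genes was not tested.

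MTX was not followed by a called change of any of the 10 genes in flox mice, where 24.2% of all genes were called, 8.09% higher and 16.1% lower. The median log2 fold change of the 10 genes was 0.24, beside 0.05 over all genes, with SEs of 0.36 to 0.79. The largest value was that of Cidec (log2 fold change 0.60, SE 0.46, adjusted p = 0.383), followed by Mgll (log2 fold change 0.48, SE 0.40, adjusted p = 0.420) and Abhd5 (log2 fold change 0.48, SE 0.39, adjusted p = 0.408). The lowest was that of Plin4 (log2 fold change -0.25, SE 0.42, adjusted p = 0.709). The groups overlapped for all 10 genes. Without flox MTX replicate 2, Abhd5 was called higher, at 0.83 (adjusted p = 0.0957). At an unadjusted p below 0.05, 0 of the 10 genes passed by edgeR and by DESeq2, beside 34.2% of all genes by edgeR.

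In KO mice MTX gave no called gene among the 10 or among all 18702 (0%), where edgeR counted 1491 genes at an unadjusted p below 0.05 (7.97%) and DESeq2 1784, with 0 of the 10 by either tool. The median of the 10 genes was -0.37, beside -0.01 over all genes, with 9 of the 10 negative. In 0 of the 10 were KO MTX mice lower without overlap, beside 9.55% of all genes. Plin4 had the lowest value (log2 fold change -0.58, SE 0.42, adjusted p = 0.791), and Abhd5 was the gene above 0 (log2 fold change 0.15, SE 0.39, adjusted p = 0.960). The SEs ran from 0.36 to 0.80, so these values do not show that the genes were unchanged.

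The difference between the genotypes in the response to MTX was tested as an interaction. It was below 0 for all 10 genes, of which 6 turned when scaled to adipocyte markers, with a median of -0.50 beside -0.05 over all genes, and 0 of the 10 were called, beside 0.989% of all genes (0.898% higher). The lowest values were those of Cidec (log2 interaction -0.94, SE 0.65, adjusted p = 0.510), Mgll (log2 interaction -0.93, SE 0.56, adjusted p = 0.453) and Aqp7 (log2 interaction -0.81, SE 0.51, adjusted p = 0.476). No gene of the 10 had an unadjusted p below 0.05 by edgeR or DESeq2. The data therefore do not show that the response to MTX differed between the genotypes for these genes, and with SEs of 0.51 to 1.12 they do not show that it was alike.

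**Figure D3:**
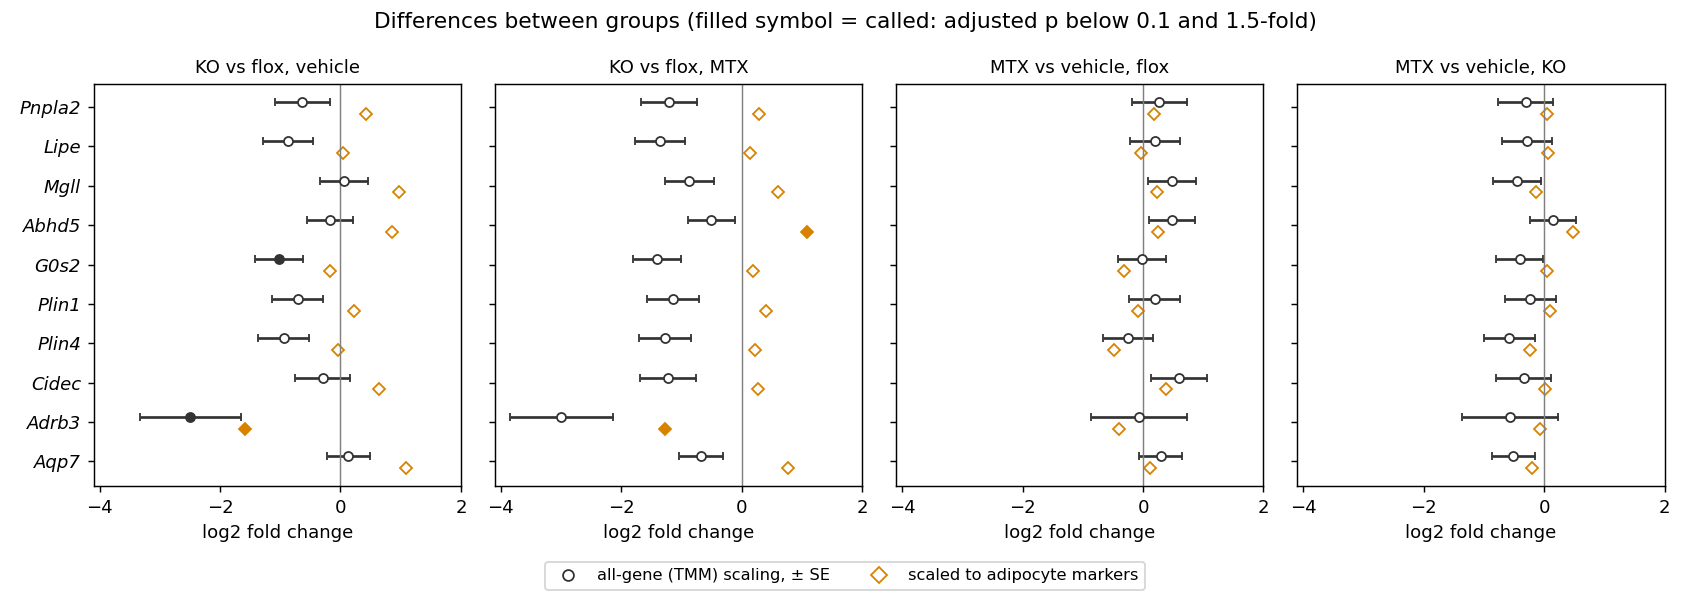
Log2 fold changes of the 10 genes in 4 comparisons. Circles use the scaling over all genes (TMM), with SE, and diamonds the scaling to 12 adipocyte markers, with filled symbols for called genes. With the adipocyte scaling most KO against flox differences move from below 0 to above it, and Adrb3 stays below 0 in both.

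The 10 genes are mostly made by fat cells, so each was also set against 12 other adipocyte markers (among them Adipoq, Fabp4, Pparg and Lpl), as CPM divided by their geometric mean in the same library. On this scale edgeR called Adrb3 lower in KO mice under both treatments, where 6.27% of all genes were called lower under vehicle and 0.834% under MTX. Abhd5 was called higher under MTX, as were 69.1% of all genes, and 17.2% were called higher under vehicle. This scaling moves the median of all genes to 0.82 in KO against flox under vehicle and to 1.55 under MTX. A value here is therefore relative to the adipocyte markers and not to the tissue. With TMM scaling the markers did not fall alike, and the lowest of them fell by more than Adrb3 under both treatments. The ratios of Abhd5, Aqp7 and Plin1 were higher in KO mice without overlap under both treatments, beside 31% of all genes under vehicle and 69% under MTX. Ratios lower without overlap were found for 6.81% of all genes under vehicle and 0.251% under MTX.

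Lipe stayed within a narrow band in the 12 libraries, at 1.59, 1.57 and 1.38 in flox vehicle, 1.5, 1.59 and 1.61 in KO vehicle, 1.51, 1.63 and 1.32 in flox MTX and 1.61, 1.63 and 1.64 in KO MTX mice. Its CPM varied 6.82-fold over the same libraries. Across the 12 libraries, which share their depth and tissue makeup, log2 CPM of Lipe had r = 0.996 with the mean of the adipocyte markers, Plin1 0.982 and G0s2 0.964, whereas Mgll had 0.804, Aqp7 0.770 and Abhd5 0.664.

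Adrb3 was at 0.510, 0.226 and 0.265 times the adipocyte mean in flox vehicle and 0.170, 0.0720 and 0.0909 in KO vehicle mice, without overlap. Under MTX it was at 0.0859, 0.276 and 0.400 in flox and 0.124, 0.107 and 0.0841 in KO mice. These groups overlapped, because flox MTX replicate 1 lay among the KO mice. In edgeR with the adipocyte scaling, its log2 fold change was -1.59 (adjusted p = 0.0594) under vehicle and -1.27 (adjusted p = 0.0574) under MTX, and it was called in both. Scaled to Adipoq alone, an alternative chosen after the values were seen, it was -1.70 (adjusted p = 0.0782) and -1.15 (adjusted p = 0.102), and the second was not called. With that scaling 6.38% of all genes were called lower under vehicle and 0.882% under MTX.

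Abhd5, the activator of PNPLA2, was at 0.0876, 0.0800 and 0.0755 times the adipocyte mean in flox vehicle and 0.108, 0.133 and 0.198 in KO vehicle mice, and at 0.143, 0.0683 and 0.0788 in flox MTX and 0.175, 0.251 and 0.186 in KO MTX mice. KO mice were above flox mice without overlap under either treatment. In edgeR the log2 fold change was 0.86 (adjusted p = 0.201) under vehicle and 1.08 (adjusted p = 0.0575) under MTX, and it was called in the second, also when scaled to Adipoq alone, at 1.24 (adjusted p = 0.0738). The value of Abhd5 under MTX was below the median of all genes on both scales, 1.55 and 1.78, and with Adipoq alone 71.6% of all genes were called higher (8.52% under vehicle), so this call is not one that sets Abhd5 apart. Abhd5 is expressed in many tissues, and the macrophage markers were higher in the same KO libraries. The part of other cells in this ratio was not tested.

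Aqp7 was at 0.119, 0.137 and 0.142 in flox vehicle and 0.239, 0.274 and 0.335 in KO vehicle mice, and at 0.195, 0.141 and 0.0976 in flox MTX and 0.259, 0.247 and 0.228 in KO MTX mice, also without overlap in either. Endothelial cells also make Aqp7, and the 10 endothelial markers together had 419 to 655 CPM in the flox vehicle and 871 to 1389 in the KO vehicle libraries, and 402 to 758 in the flox MTX and 599 to 1046 in the KO MTX libraries, which overlapped. Their part in the Aqp7 ratio was not tested. Mgll was at 1.39, 2.01 and 1.74 in flox vehicle and 2.96, 3.22 and 3.87 in KO vehicle mice, without overlap, and Cidec was higher without overlap in the same comparison, at 2.72, 2.90 and 3.44 and 4.69, 4.53 and 4.86. Under MTX both overlapped, with flox MTX replicate 1 at 2.99 for Mgll and 5.01 for Cidec, within or above the range of the KO mice. The edgeR log2 fold changes with the adipocyte scaling were 1.09 (adjusted p = 0.102) for Aqp7, 0.97 (adjusted p = 0.122) for Mgll and 0.64 (adjusted p = 0.243) for Cidec under vehicle, none of them called. An exact permutation test of 3 against 3, two-sided, gave p = 0.1 for each ratio without overlap, the smallest it can give.

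The call of G0s2 under vehicle was lost on this scale, at -0.17 (adjusted p = 0.766), and Plin4, Pnpla2 and Plin1 were at -0.04, 0.43 and 0.22. Under MTX these were at 0.19, 0.21, 0.29 and 0.40. Plin1 alone of these had ratios without overlap, at 1.58, 1.64 and 1.44 in flox vehicle and 1.64, 1.78 and 2.01 in KO vehicle mice, a small difference. With this scaling 1 of the 10 genes was called under vehicle, beside 4385 of 18702, and 2 under MTX, beside 13076 of 18702.

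**Figure D4:**
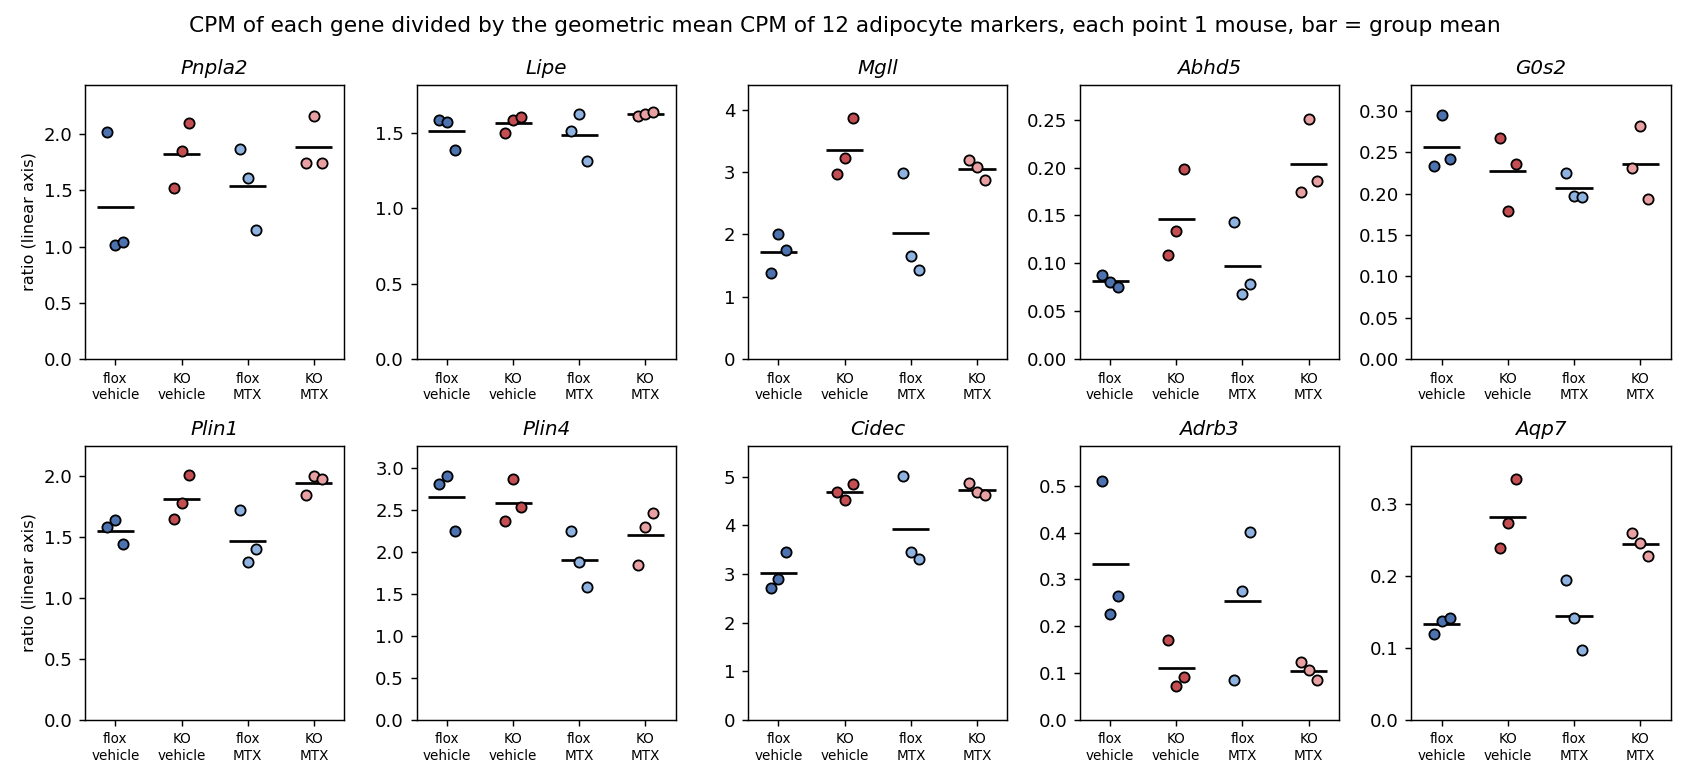
CPM of each of the 10 genes divided by the geometric mean CPM of 12 adipocyte markers in each mouse, on linear axes from 0. Points are mice and bars group means. Lipe lies between 1.32 and 1.64 in all 12 mice, Adrb3 is lower in KO than in flox vehicle mice, and Abhd5 and Aqp7 are higher in KO mice under both treatments.

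Ratios of counts within a library do not depend on any scaling. The ratio of Plin2 to Plin1 had the largest differences between KO and flox mice of the 5 ratios examined. PLIN2 is the perilipin of small droplets in many cell types, including lipid-laden macrophages, and PLIN1 is largely restricted to fat cells. Plin2 counts were 0.169, 0.223 and 0.335 times the Plin1 counts in flox vehicle mice and 0.940, 1.19 and 2.57 times in KO vehicle mice. Under MTX the ratio was 0.728, 0.706 and 0.236 in flox and 2.05, 4.21 and 1.37 in KO mice. KO mice were above flox mice under both treatments, by 2.61 and 2.20 in log2 ratio (exact permutation test, two-sided, p = 0.1 for both, the smallest 3 against 3 can give).

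Plin2 itself was at 379, 245 and 632 CPM in flox vehicle and 1269.6, 1252 and 2024 CPM in KO vehicle mice (log2 fold change 1.86, SE 0.39, adjusted p = 0.00576), and was called higher. In flox MTX mice it was at 1429, 818 and 679 CPM, called higher than in flox vehicle mice (log2 fold change 1.22, SE 0.38, adjusted p = 0.0452), and in KO MTX mice at 2067, 2049 and 1682 CPM (log2 fold change 0.99, SE 0.38, adjusted p = 0.150 against flox MTX). The 4 libraries with fewer than 1000 CPM of macrophage markers had ratios of 0.169 to 0.335, and the 6 KO libraries, with 3619.7 to 7993 CPM, had ratios of 0.940 to 4.21. Flox MTX replicate 1, with 1985 CPM of these markers, had a ratio of 0.728. Flox MTX replicate 2, with 3794 CPM, had more of them than KO vehicle replicate 1 and a lower ratio, at 0.706. The part of macrophages in the ratio was not tested.

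**Figure D5:**
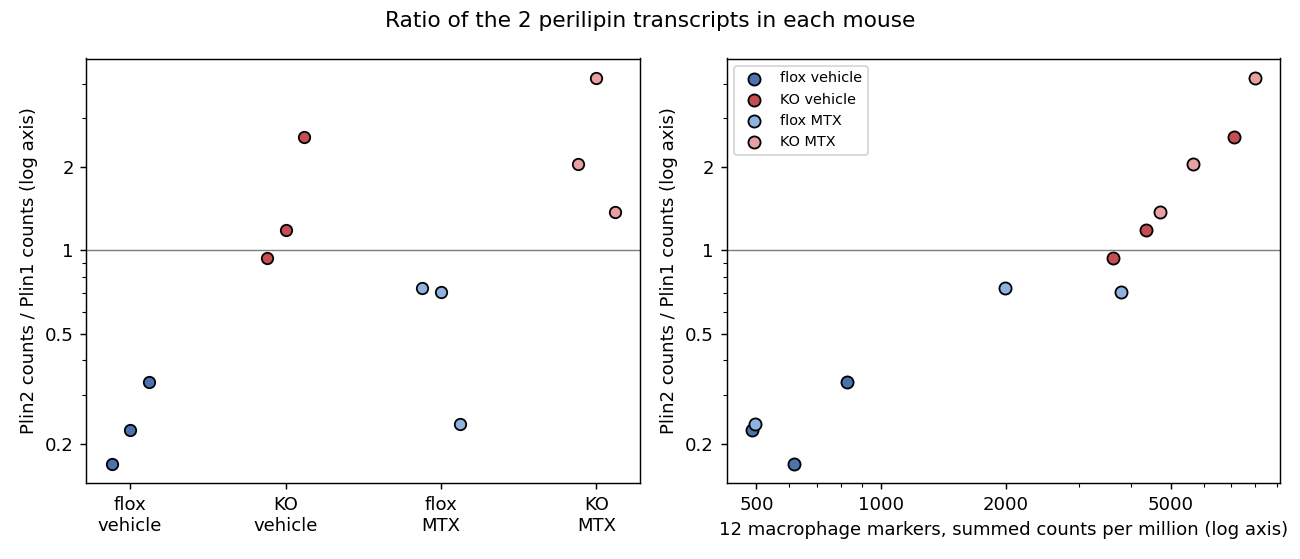
Ratio of Plin2 to Plin1 counts in each of the 12 mice, by group and against the summed CPM of 12 macrophage markers, on log axes. Points are mice and the grey line marks equal counts. Ratios run from 0.169 in a flox vehicle mouse to 4.21 in a KO MTX mouse, and flox MTX replicate 2 has a ratio below all KO mice at a macrophage sum within their range.

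Of the other 4 ratios, Abhd5 to Pnpla2, activator to lipase, was 0.0764, 0.0425 and 0.0687 in flox MTX and 0.0999, 0.116 and 0.107 in KO MTX mice, higher in KO without overlap by 0.82 in log2 ratio. It was also higher in KO MTX than in KO vehicle mice, at 0.0711, 0.0722 and 0.0944 in the latter, by 0.45. Cidec to Plin1 was 1.72, 1.78 and 2.40 in flox vehicle and 2.85, 2.55 and 2.42 in KO vehicle mice, higher in KO by 0.42, with the highest flox ratio close to the lowest KO ratio. Each of these had an exact permutation p of 0.1, two-sided. The ratio of the inhibitor G0s2 to Pnpla2 differed by -0.68 under vehicle and -0.13 under MTX between KO and flox mice, and that of Lipe to Pnpla2 by -0.44 and -0.17, and the groups overlapped in all comparisons of both.

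Other genes of droplets and lipolysis were examined as 5 lists, whose counts in KO against flox under vehicle stand beside 13.9% of all genes called higher and 17.8% lower. In KO against flox mice under vehicle, triglyceride synthesis had 6 of 14 genes called lower and 0 higher, with a median of -0.62. The lower genes with the largest changes were Gpam (log2 fold change -2.45, SE 0.40, adjusted p = 0.00324) and Gpat3 (log2 fold change -1.34, SE 0.48, adjusted p = 0.0564), acyltransferases of the first step, Mogat1 (log2 fold change -1.75, SE 0.61, adjusted p = 0.0511), and Pck1 (log2 fold change -2.29, SE 0.74, adjusted p = 0.0385), which makes glycerol phosphate from lactate and amino acids. Gpam was at 112, 60.5 and 99.9 CPM in flox and 19, 16.2 and 14.8 CPM in KO vehicle mice, with a wide gap between them. Pck1 overlapped, at 1955, 227 and 872 CPM in flox and 305, 186 and 133 CPM in KO vehicle mice. Under MTX the list had a median of -1.06 in KO against flox mice, with 12 of 14 negative, and in flox mice MTX gave 0 of 14 called. In KO against flox mice the 12 adipocyte markers had medians of -0.71 under vehicle, with 4 called lower, and -1.20 under MTX.

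The list of receptors, G proteins, cyclases and kinases of lipolytic signalling had 5 of 26 genes called higher and 6 lower in KO vehicle mice, counts near those shares, with a median of -0.31. Ffar4, a receptor for long-chain fatty acids, was at 23.9, 15.7 and 24.8 CPM in flox and 8.06, 5.25 and 4.41 CPM in KO mice (log2 fold change -1.86, SE 0.41, adjusted p = 0.00688). Gnai1, an inhibitory G protein subunit, was lower (log2 fold change -1.18, SE 0.37, adjusted p = 0.0332), as was the kinase anchor Akap1 (log2 fold change -1.31, SE 0.24, adjusted p = 0.00395), and Adcy4, an adenylyl cyclase also found in endothelium, was higher (log2 fold change 1.32, SE 0.25, adjusted p = 0.00428). Akap1 was also called lower in flox MTX than in flox vehicle mice (log2 fold change -0.93, SE 0.23, adjusted p = 0.0214). It was at 131, 121 and 77.2 CPM in flox vehicle and 59.5, 46.8 and 66.6 CPM in flox MTX mice. In KO vehicle mice it was at 52.5, 43.9 and 36.4 CPM. The part of epididymal and germ cell RNA in the Akap1 values was not tested.

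Among the other lipases, 4 of 17 tested were called higher and 2 lower in KO vehicle mice, beside the same 13.9% and 17.8% of all genes. The higher ones included Nceh1 (log2 fold change 3.09, SE 0.65, adjusted p = 0.00600), which hydrolyses cholesteryl esters, Lipa (log2 fold change 2.09, SE 0.45, adjusted p = 0.00629), the acid lipase of lysosomes, and Daglb (log2 fold change 1.92, SE 0.33, adjusted p = 0.00348), a diacylglycerol lipase. Lipa was at 106, 91.6 and 98.0 CPM in flox and 331, 377 and 551 CPM in KO vehicle mice. These 3 genes are expressed in macrophages, whose 12 markers were all called higher in the same comparison with a median of 2.80. They were also called higher in flox mice given MTX, with Nceh1 at 1.88, Lipa at 1.17 and Daglb at 1.12, where again all 12 macrophage markers were called higher with a median of 1.83. In that comparison the groups overlapped for all 3 genes. Flox MTX replicate 4 was below every flox vehicle mouse for Nceh1, at 8.07 CPM, and for Lipa, at 75.0 CPM. For Daglb, at 27.6 CPM, it was within their range. The part of macrophages in these values was not tested.

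The most negative values of the 5 lists were those of Lipg, Aqp9 and Gk. The endothelial lipase Lipg was at 50.2, 106 and 23.6 CPM in flox vehicle mice and at 0.756, 1.1 and 0.750 in KO vehicle mice (log2 fold change -6.09, SE 0.76, adjusted p = 0.00276). The glycerol channel Aqp9 was at 73.5, 171 and 26.8 CPM in flox and 4.64, 4.28 and 4.45 CPM in KO vehicle mice (log2 fold change -4.35, SE 0.68, adjusted p = 0.00301), and glycerol kinase Gk at 92.2, 229 and 58.5 and 23.0, 21.5 and 21.0 CPM (log2 fold change -2.54, SE 0.58, adjusted p = 0.00862). In the flox vehicle libraries all 3 were highest in replicate 3, then 1, then 4, the order of Crisp1, an epididymal secretory protein, at 3751, 9201 and 1164 CPM. Aqp11 was lower as well (log2 fold change -1.78, SE 0.30, adjusted p = 0.00348), and the fatty acid carrier Fabp5 higher (log2 fold change 1.37, SE 0.42, adjusted p = 0.0307), so the list of glycerol and fatty acid handling had 1 of 10 called higher and 3 lower. The same genes were called in flox mice given MTX against vehicle, with Lipg at -4.30, Aqp9 at -4.13, Gk at -2.43 and Aqp11 at -1.501, a comparison that shares the flox vehicle libraries. Lipg was also the gene of the 5 lists with a called interaction (log2 interaction 5.11, SE 0.97, adjusted p = 0.0791). The part of epididymal RNA in these values was not tested.

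Of 19 other droplet proteins tested, 2 were called higher in KO vehicle mice, Plin2 and the droplet protein Aup1 (log2 fold change 0.63, SE 0.14, adjusted p = 0.00692), and 2 lower, Mettl7a1 (log2 fold change -0.98, SE 0.38, adjusted p = 0.0755) and Cideb (log2 fold change -1.93, SE 0.81, adjusted p = 0.0987), the latter at no more than 1.52 CPM in any library. In flox mice given MTX, Plin2 was higher and Cideb lower (log2 fold change -2.54, SE 0.87, adjusted p = 0.0638). In KO against flox mice under MTX, 0 genes of the 5 lists were called, as of all genes, and MTX against vehicle in KO mice gave 0 as well.

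Over the 12 libraries the 10 genes moved together to differing degrees. Between pairs of them, r of log2 CPM ran from 0.420 for Abhd5 and Adrb3 to 0.978 for Lipe and Plin1. The correlation of each gene's log2 CPM with the mean of their standardised values was 0.991 for Plin1, 0.971 for Cidec and 0.970 for Lipe, and the lowest were 0.790 for Abhd5 and 0.817 for Adrb3. That mean includes the gene itself, which raises these values. Libraries share their depth and their share of fat cells, so these are descriptions and not tests. Among 15476 other genes with a mean of at least 1 CPM, the 8 most like the mean of the 10 were Cacng7 (r = 0.990), Ppm1m (0.987), Hadh (0.985), Clybl (0.984), Mccc2 (0.983), Abcd2 (0.982), Slc1a5 (0.982) and Fam213a (0.981).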

How the data were processed

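RNA of 12 eWAT samples, 1 per mouse, had been sequenced. Per the labels and the paper's methods, the authors trimmed reads (Trimmomatic 0.36), aligned them to GRCm38 with STAR 2.5.2b and made the deposited counts per Ensembl gene with featureCounts (Subread 1.5.2). The labels give poly(A) RNA and the methods ribosomal depletion, and strand and multimapping settings are not given in the sources used here. Rows without a gene symbol held 0.0688% of counts.

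The deposited counts were fitted in R 4.3.3 with edgeR 4.0.16 (filterByExpr, TMM, quasi-likelihood test, 1 coefficient per group over 12 libraries, common dispersion 0.100, 8 residual degrees of freedom), and p-values were adjusted by Benjamini-Hochberg over 18702 genes. DESeq2 1.42.0, other scalings, filters and limits, a replicate block and leaving out each library were alternatives. Groups came from the labels. CPM are TMM-scaled, and a floor of 3 counts is 0.118 to 0.188 CPM; it covers counting error only. Lengths were the union of exons in GENCODE M21. No library pair was a duplicate (chi-square per degree of freedom at least 14.1).

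In simulated counts for KO against flox under vehicle, 200 of 18702 genes were changed 4-fold, and 18297 genes passed the filter on the simulated counts. Of the changed genes 133 were called, and of the unchanged 14. In the data 31.7% of all genes were called in this comparison, so the simulation had far fewer changes, and it had no RNA of other tissues. The 10 genes and the gene lists were chosen with earlier results of these data known. The text names all 10 genes, up to 4 genes called with the largest changes in each list, the genes of 5 ratios, the 8 genes most alike in pattern, and Adipoq and Crisp1 as leading markers. Genes that overlap the 10, the deleted miRNAs and Lcn5 were named after their values were seen. Some genes that these rules would name are not reported here.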

Additional observations from a re-analysis of the deposited data

How the results depend on the processing

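The 10 genes were tested under up to 9 other settings and with each of the 12 libraries left out, and their calls also under 3 other limits. Of 1010 values of the 10 genes under these, 938 kept their sign and 72 changed it, 9 lost a call and 38 gained one. The cause of a change was not tested unless given. Precision was limited by 3 mice per group rather than by depth, since a floor of 3 counts is 0.118 to 0.188 CPM. RLE factors in place of TMM changed no count by over 1.5 times and no sign.

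The limits of a call moved the counts by construction. With an adjusted p below 0.1 and a log2 fold change of at least 1.5, the numbers called were 1 of the 10 genes and 3026 of all genes in KO against flox under vehicle and 2791 of all genes in MTX against vehicle in flox mice. With an adjusted p below 0.05 they were 1 of the 10 genes and 4843 of all genes in KO against flox under vehicle. In the interaction 33 of all genes were called. DESeq2 called 4 of the 10 genes and 6245 of all genes in KO against flox under vehicle. In KO against flox under MTX it called 7 of the 10 genes and 2769 of all genes. It called 281 of all genes in MTX against vehicle in KO mice and 1248 of all genes in the interaction. Without the filter on low counts the numbers were 3 of the 10 genes and 875 of all genes in KO against flox under MTX, 20 of all genes in MTX against vehicle in KO mice and 472 of all genes in the interaction, and when each library had to hold at least 10 counts of a gene 4 of the 10 genes and 1491 of all genes in KO against flox under MTX, 2198 of all genes in MTX against vehicle in flox mice and 1 of all genes in the interaction. With the libraries of a comparison alone they were 4 of all genes in KO against flox under MTX, 2167 of all genes in MTX against vehicle in flox mice and 3 of all genes in MTX against vehicle in KO mice. Without the filter, G0s2 at 0.013 in MTX against vehicle in flox mice changed sign, and scaling by total counts turned Lipe at -0.022 and Plin1 at -0.038 in MTX against vehicle in flox mice.

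Scaling to the adipocyte markers gave 1 of the 10 genes and 4385 of all genes in KO against flox under vehicle. In KO against flox under MTX it gave 2 of the 10 genes and 13076 of all genes. Of all genes, it gave 2150 in MTX against vehicle in flox mice, 6 in KO mice and 403 in the interaction. It turned the sign of Pnpla2 at 0.43, Lipe at 0.048, Abhd5 at 0.86, Plin1 at 0.22 and Cidec at 0.64 in KO against flox under vehicle, Pnpla2 at 0.29, Lipe at 0.13, Mgll at 0.60, Abhd5 at 1.08, G0s2 at 0.19, Plin1 at 0.40, Plin4 at 0.21, Cidec at 0.27 and Aqp7 at 0.76 in KO against flox under MTX, Lipe at -0.028 and Plin1 at -0.078 in MTX against vehicle in flox mice, Pnpla2 at 0.046, Lipe at 0.058, G0s2 at 0.050, Plin1 at 0.10 and Cidec at 0.011 in MTX against vehicle in KO mice, Lipe at 0.087, Abhd5 at 0.22, G0s2 at 0.37, Plin1 at 0.18, Plin4 at 0.25 and Adrb3 at 0.32 in the interaction. Scaling to Adipoq alone, chosen after the data were seen and run for KO against flox, gave 1 of the 10 genes and 2787 of all genes in KO against flox under vehicle and 1 of the 10 genes and 13549 of all genes in KO against flox under MTX, and turned the sign of Pnpla2 at 0.34, Abhd5 at 0.72, Plin1 at 0.061 and Cidec at 0.45 in KO against flox under vehicle, Pnpla2 at 0.46, Lipe at 0.29, Mgll at 0.75, Abhd5 at 1.24, G0s2 at 0.36, Plin1 at 0.55, Plin4 at 0.37, Cidec at 0.42 and Aqp7 at 0.92 in KO against flox under MTX. With scaling by total counts the median of all genes moved from -0.05 to 0.12 in KO against flox under MTX, from 0.05 to -0.15 in MTX against vehicle in flox mice, and from -0.05 to 0.13 in the interaction. The split of the calls over all genes moved with it, from 2598 higher and 3326 lower in KO against flox under vehicle to 3212 and 1173 with the adipocyte scaling and 1594 and 1193 with Adipoq alone. In MTX against vehicle in flox mice it moved from 1513 higher and 3015 lower to 766 and 3607 with total counts and 218 and 1932 with the adipocyte scaling.

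Replicate numbers recur across the groups, and what they stand for was not given in the sources used here. Over 12 pairs of same-numbered libraries the correlation of their deviations had a median of 0.0516 (-0.369 to 0.369). Over 42 other pairs the median was -0.0149, and not every same-numbered pair was above 0.1. With so few mice per group, these correlations cannot show whether same-numbered mice shared a cage or litter. The main fit assumed no pairing. With the number as a replicate block, 4 of the 10 genes and 5080 of all genes were called in KO against flox under vehicle. In MTX against vehicle in flox mice 2771 of all genes were called, and in the interaction 0 of all genes. The sign turned for Abhd5 at 0.16 in KO against flox under vehicle. In MTX against vehicle in flox mice it turned for Lipe at -0.029 and Plin1 at -0.0015.

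Fits were run with 1 library left out at a time. In KO against flox under vehicle, 0 to 5 of the 10 genes and 4640 to 6828 of all genes were called. In KO against flox under MTX the numbers were 0 to 9 of the 10 genes and 0 to 4064 of all genes. In MTX against vehicle in flox mice they were 0 to 1 of the 10 genes and 2219 to 5995 of all genes. Over these fits 0 to 215 of all genes were called in MTX against vehicle in KO mice. In the interaction 5 to 1371 of all genes were called over these fits. The log2 fold changes whose sign turned in at least 1 of these ran over Pnpla2 -1.002 to 0.055, Abhd5 -0.45 to 0.11, Mgll -0.12 to 0.24 and Aqp7 -0.12 to 0.33 in KO against flox under vehicle, G0s2 -0.37 to 0.24, Plin4 -0.48 to 0.034, Adrb3 -1.24 to 0.65, Pnpla2 -0.099 to 0.96, Lipe -0.096 to 0.46 and Plin1 -0.15 to 0.48 in MTX against vehicle in flox mice, G0s2 -0.63 to 0.067, Adrb3 -0.90 to 0.30, Lipe -0.54 to 0.027, Plin1 -0.51 to 0.071 and Abhd5 -0.064 to 0.36 in MTX against vehicle in KO mice, G0s2 -0.64 to 0.090 and Adrb3 -1.22 to 0.66 in the interaction. Among the log2 ratios, those that turned ran over G0s2 to Pnpla2 -0.22 to 0.031 in KO against flox under MTX, G0s2 to Pnpla2 -0.18 to 0.25 in MTX against vehicle in KO mice, Abhd5 to Pnpla2 -0.32 to 0.20 in MTX against vehicle in flox mice and Lipe to Pnpla2 -0.080 to 0.11 in MTX against vehicle in KO mice. In the interaction the highest number of genes came without flox vehicle replicate 4 and the lowest without KO vehicle replicate 2, in KO mice 215 came without KO vehicle replicate 3, and in flox mice 2219 came without flox vehicle replicate 3.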
